A study of Homo sapiens with 12 samples.

Results

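The genes described here are the metalloproteases of the ADAM, ADAMTS and matrix metalloprotease (MMP) families and their tissue inhibitors, the TIMPs, in lung cancer cells given the histone deacetylase inhibitor SAHA. Members were the protein-coding genes of the deposited tables whose symbols begin with ADAM and a number, ADAMTS, MMP and a number, or TIMP and a number. The rule took 72 of 58302 genes: 20 ADAM, 19 ADAMTS, 5 ADAMTS-like, 23 MMP and 4 TIMP genes, and MMP24OS. MMP24OS is an opposite-strand neighbour that overlaps MMP24 and is not a protease; it is counted with the members but described on its own.

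RNA was sequenced from 2 established human cell lines of non-small-cell lung cancer, H1299 and H1703. Each line was given either SAHA or DMSO for 24 h, with 3 libraries per line and agent, 12 in all. SAHA (vorinostat) blocks zinc-dependent histone deacetylases, and 0.1% DMSO was its vehicle. The protocol lists SAHA at 0, 2.5, 10 and 40 µM without saying which dose was sequenced, so no value below belongs to a stated dose, and each histology named in the title is represented by no more than a single line. Nothing in the labels says that the 3 libraries of a group came from separate cultures, and the p-values therefore speak only to how far these libraries spread, which may be technical spread.

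ADAMs are membrane-anchored proteases that cut the outer part off other membrane proteins, a step called shedding, which frees growth factors and cytokines from the cell surface. ADAMTS enzymes are secreted relatives with thrombospondin repeats that process procollagen, cleave proteoglycans or trim von Willebrand factor. MMPs degrade collagens, gelatins, laminins and other matrix proteins, some of them secreted and some held in the membrane, and TIMPs block them by occupying the catalytic zinc. In tumours these enzymes are known for their part in invasion, growth factor release and matrix turnover.

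Total counts ran from 14.4M to 19.4M per library. Mitochondrially encoded genes took 1.96 to 2.22% of an H1299 DMSO library and 4.0 to 4.23% of an H1299 SAHA library, and 5.44 to 6.27% and 8.77 to 10.9% in H1703; the part of this shift in the results below was not tested. The 72 members together took 0.0985 to 0.113% of all counts in the H1299 DMSO libraries, 0.140 to 0.152% in the SAHA libraries, and 0.179 to 0.185% and 0.228 to 0.269% in H1703. Of 12 epithelial markers, 4 reached 1 CPM (a count scaled by library size) in H1299 with DMSO, where CDH1, KRT5 and KRT17 had no count, and 7 did so in H1703. Their summed level ran from 594.3 to 617.1 CPM in the H1299 DMSO libraries and from 1366 to 1589 CPM in the SAHA libraries. In H1703 it ran from 3983 to 4440.4 and from 2968 to 3429.8 CPM. KRT7 alone went from a mean of 2182.5 to 613.3 CPM in H1703, where 4 epithelial markers rose and 2 fell. In H1299 3 rose and 0 fell. Summed fibroblast markers ran from 2830.6 to 3504 CPM in the H1299 DMSO libraries and from 1692 to 2092 CPM in the SAHA libraries. In H1703 they ran from 1069 to 1143 and from 1129 to 1185 CPM. Most of the H1299 sum was VIM, with means of 3257 CPM with DMSO and 1892.4 CPM with SAHA. Of 4 fibroblast markers tested in H1299, 3 rose and 1 fell, and of 7 in H1703, 4 rose and 1 fell. Summed lung lineage markers ran from 6.92 to 7.98 and 9.02 to 10.1 CPM in H1299, and from 43.8 to 46.7 and 11.5 to 12.2 CPM in H1703. SOX2 alone went from a mean of 40.0 to 5.26 CPM in H1703. No endothelial marker of 6 and no lymphoid marker of 9 reached 1 CPM under DMSO in either line. After SAHA 2 of 6 endothelial markers did so in H1299 and 3 in H1703, where 7 of 10 myeloid markers also did, against 3 under DMSO. Summed myeloid markers ran from 30.0 to 49.9 CPM in H1703 with DMSO and from 171 to 194 CPM with SAHA, with S100A9 at 0.249 ± 0.0979 and 92.8 ± 11.9 CPM. In H1299 the myeloid sums ran from 25.0 to 45.7 and from 24.4 to 28.4 CPM. Of 3 myeloid markers tested there, CSF1R rose from a mean of 0.139 to 6.67 CPM and 2 fell. The part of these markers in the changes of the proteases was not tested. In bulk RNA, fewer cells that express a gene and less RNA of it per cell cannot be told apart.

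To see which members dominated in each line, the deposited FPKM values, which are per gene length, were compared between genes. TIMP1, the secreted inhibitor of most soluble MMPs, was the most abundant member in every group, at 73.6 ± 1.13 FPKM in H1299 with DMSO (mean ± SD of 3 libraries) and 102.1 ± 1.78 FPKM in H1703 with DMSO. The next protease in H1299 was MMP14, the membrane-anchored collagenase that activates pro-MMP2, at 15.1 ± 0.46 FPKM, followed by the sheddase ADAM9 at 12.1 ± 0.146 FPKM. In H1703 the leading protease under DMSO was MMP24, a membrane-type MMP known from neurons, at 32.8 ± 1.29 FPKM, ahead of ADAM9 at 21.5 ± 0.88 FPKM and the small secreted protease MMP7 (matrilysin) at 12.4 ± 0.476 FPKM. After SAHA the leading protease was MMP15, another membrane-type MMP, in both lines: 12.4 ± 1.24 FPKM in H1299 and 77.7 ± 7.47 FPKM in H1703. MMP15 had stood at 0.712 ± 0.163 FPKM in H1299 with DMSO. The ubiquitous sheddases ADAM10 and ADAM17 lay between 4.51 and 12.7 FPKM in all 4 groups. In H1299 with SAHA, ADAM15 at 11.5 ± 0.653 and ADAM19 at 11.4 ± 1.2 FPKM stood close to MMP15 and did not differ from it beyond the spread of the libraries.

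**Figure D1:**
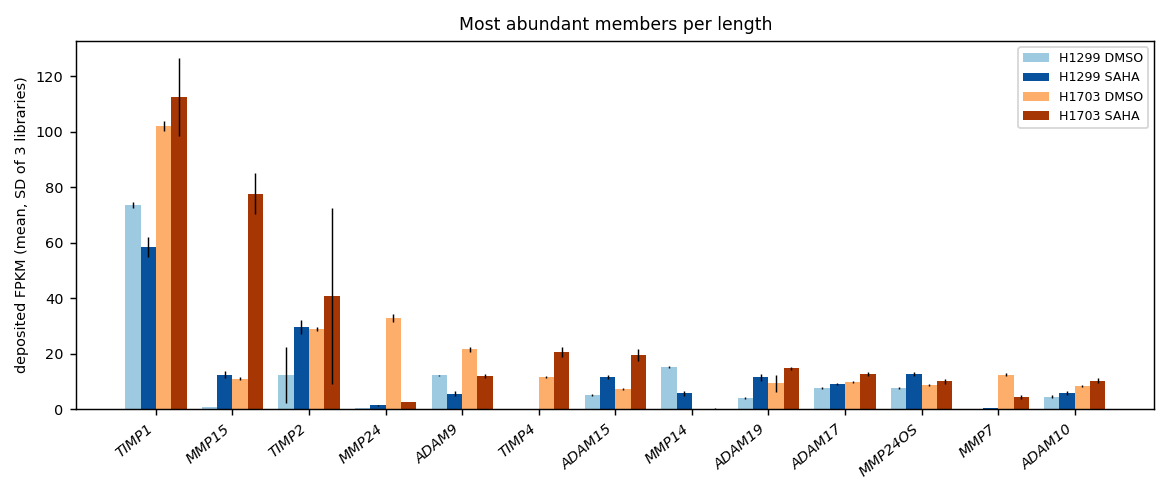
Deposited FPKM (vertical axis) of the 13 genes that ranked among the 8 highest members in any group; bars are means and lines the SD of 3 libraries. TIMP1 is the tallest in all 4 groups, MMP24 is tall in H1703 with DMSO alone, and MMP15 has its highest bar in H1703 with SAHA (77.7 FPKM).

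The lines already differed under DMSO. Of 56 members with enough counts to test in the 12 libraries, 36 were higher and 13 lower in H1703 than in H1299, at an adjusted p below 0.05 in edgeR's quasi-likelihood test; 34.3% and 32.2% of all genes tested were called in these directions, 66.5% in all. A difference of 2-fold or more was called for 28 members higher in H1703 and 12 lower, against 20.9% and 16.5% of all genes. In 47 of the 56 the 2 groups of 3 libraries did not overlap, against 72.9% of all genes. Of the 36 higher members, 16 reached the filter level in both DMSO groups, 15 in the H1703 DMSO group but not the H1299 one, and 5 in neither. Of the 13 lower ones, 5 reached it in both and 8 in the H1299 DMSO group alone of the 2. The fit held the SAHA libraries too, so most of these could also have been tested through a SAHA group; MMP25 was the only called member that reached the level in 1 DMSO group and in no SAHA group.

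Among the genes higher in H1703 was TIMP4, which had no count in the 3 H1299 DMSO libraries and 20.6, 19.5 and 19.5 CPM in H1703 DMSO. Set against a floor of 3 counts over the 3 libraries, it was at least 338.7-fold higher in H1703. ADAMTS14, a procollagen N-propeptidase, likewise had no count in H1299 DMSO and 4.09, 5.31 and 4.06 CPM in H1703, at least 77.0-fold higher. Both genes were thus detected in every H1703 DMSO library and in no H1299 DMSO library. MMP7 stood at 0.302, 0 and 0.113 CPM in H1299 and at 38.6, 40.0 and 36.4 CPM in H1703 (log2 difference 8.05 ± 0.37 SE, adjusted p = 2.1e-10). Without H1299 DMSO replicate 1, which held most of the few counts, the value was 9.19. ADAMTS9, a proteoglycanase, had 3 counts in H1299 and 1210 in H1703, a ratio of 435.5 with an exact 95% interval for counting error of 148.7 to 2115; without H1299 DMSO replicate 3, which held all 3, H1299 was at 0. ADAMTS10, which binds fibrillin microfibrils, stood at 0.181, 0.177 and 0.0566 CPM in H1299 and at 36.5, 36.6 and 35.6 CPM in H1703 (7.97 ± 0.30, adjusted p = 1.7e-11). None of these groups overlapped.

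In the other direction, MMP14 was at 86.6, 84.9 and 80.9 CPM in H1299 with DMSO and at 0.638, 0.525 and 0.756 CPM in H1703 (log2 difference -7.03 ± 0.19, adjusted p = 8.6e-13). ADAMTS3, the procollagen II N-propeptidase that also activates VEGF-C, stood at 16.9, 15.8 and 18.1 CPM in H1299 and at 0.766, 0.292 and 0.55 CPM in H1703 (-4.98 ± 0.23, adjusted p = 1.8e-10). MMP11 (stromelysin-3) stood at 3.20, 2.42 and 2.15 CPM in H1299 and at 0, 0.35 and 0.0688 CPM in H1703 (-4.07 ± 0.52, adjusted p = 8.3e-06), and at -5.98 without H1703 DMSO replicate 2. All 3 genes were separated without overlap between the lines. ADAMTS19, whose substrates are poorly known, had 52 counts in H1299 and none in H1703, at least 16.1-fold lower. ADAMTS20, known from melanoblast migration, had 67 and 2 counts, a ratio of 31.0 (8.26 to 261.4) in favour of H1299. Its fitted log2 difference of -4.72 became -4.05 without H1299 DMSO replicate 2, which held most of its counts there, and -7.43 without H1703 DMSO replicate 1.

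The other fixed genes differed less between the lines. ADAM9 (1.03 ± 0.10, adjusted p = 3.1e-07), ADAM10 (1.06 ± 0.10, adjusted p = 4.7e-07), ADAM15 (0.74 ± 0.09, adjusted p = 7.6e-06) and ADAM17 (0.56 ± 0.08, adjusted p = 3.8e-05) were all higher in H1703 on the log2 scale. The gelatinase MMP2 was also higher there, at 39.7, 46.6 and 44.7 CPM against 6.47, 6.21 and 6.79 CPM (2.75 ± 0.16, adjusted p = 2.6e-09). ADAMTS1, an aggrecan and versican cleaving enzyme, was lower in H1703 (-1.77 ± 0.21, adjusted p = 4.7e-06). MMP9 was called lower in H1703 (-1.13 ± 0.42, adjusted p = 0.0267), but its libraries overlapped, and the call was lost without H1299 DMSO replicate 1 or 2 or H1703 DMSO replicate 1 or 2 (adjusted p from 0.0506 to 0.103); without H1703 DMSO replicate 3 it was -1.93. For MMP1 the call (0.86 ± 0.32, adjusted p = 0.0291) was lost without H1299 DMSO replicate 2 or 3 or H1703 DMSO replicate 1 (adjusted p from 0.099 to 0.117). Calls of ADAM8, MMP25 and MMP12 likewise ended when single DMSO libraries were left out: ADAM8 with every one but H1299 replicate 2 (adjusted p up to 0.152), MMP25 with H1299 replicate 1 or 3 (up to 0.0706), and MMP12 with any one but H1703 replicate 3 (up to 0.0889). MMP25 also moved from 2.19 to 2.85 without H1299 replicate 2. MMP12 was also lost with the repeat number as a block (adjusted p = 0.0515).

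Most testable members rose with SAHA in each line. In H1299, 46 members passed the filter on low counts; 31 rose, 5 fell and 10 did not pass the test, while 33.3% and 30.4% of all genes tested rose and fell, 63.8% in all. Their median log2 change was 1.32, against 0.02 over all genes tested. In H1703, 50 passed the filter; 37 rose, 8 fell and 5 did not pass the test, against 34.7% and 32.6% of all genes (67.4% in all), with a median of 0.94 against 0.02. A change of 2-fold or more upward was called for 26 members in H1299 and 23 in H1703, against 19.3% and 19.5% of all genes; 2 and 5 members fell that far, against 11.1% and 14.9%. SAHA and DMSO libraries did not overlap for 41 of 46 members in H1299 and 45 of 50 in H1703, against 69.4% and 72.2% of all genes. These counts lean on the filter: 15 of the 31 risers in H1299 and 10 of the 37 in H1703 reached it in the SAHA libraries alone and could be tested only because they were high there.

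**Figure D2:**
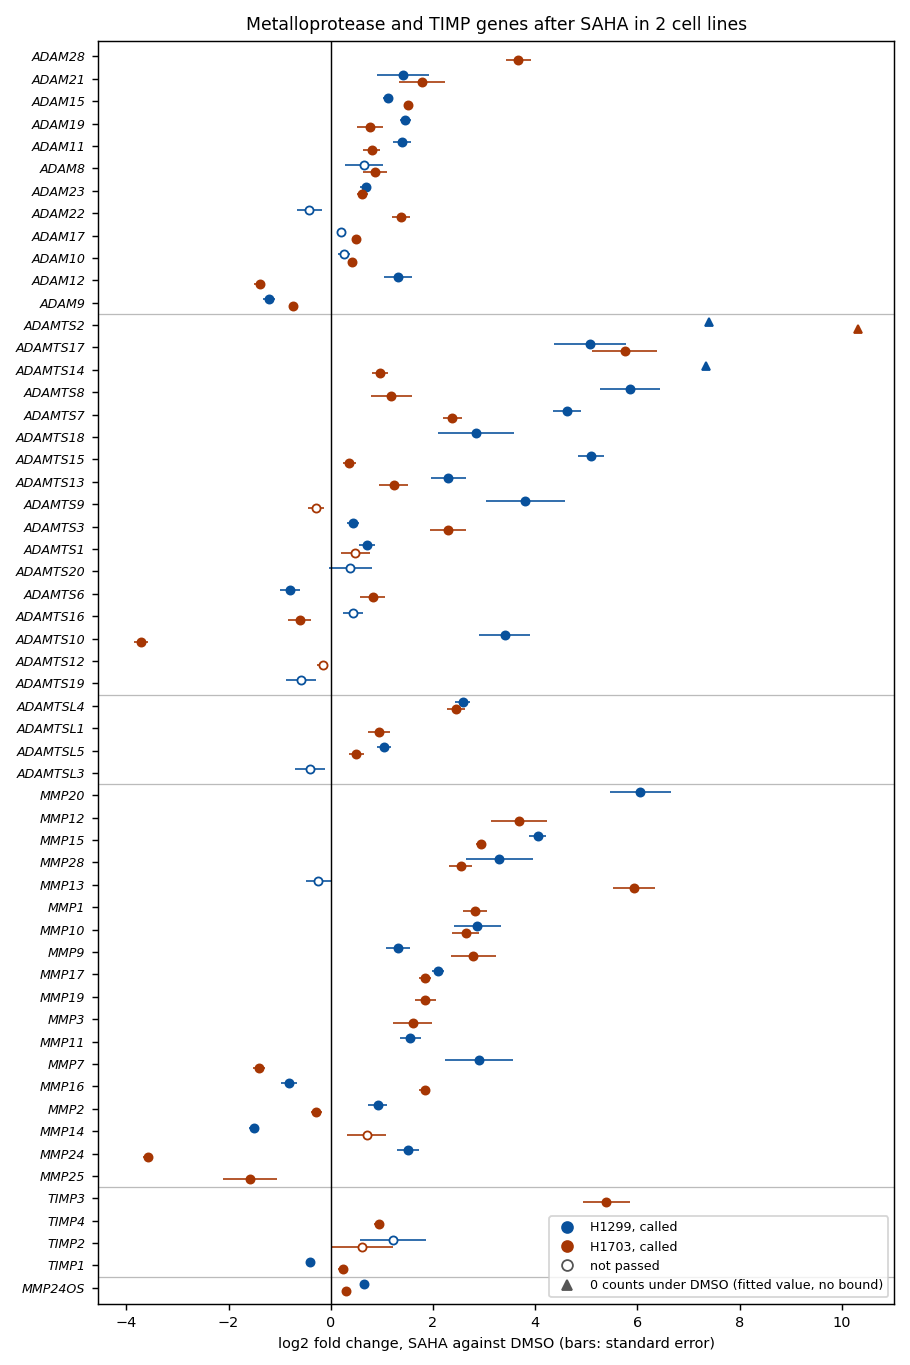
Log2 fold change of SAHA against DMSO (horizontal axis, bars are standard errors) for the 56 members tested in at least 1 line, H1299 in blue and H1703 in brown, grouped by family; open symbols did not pass the test and triangles had no count under DMSO. Most symbols lie right of 0, and ADAMTS10, MMP24, MMP7 and ADAM12 lie on opposite sides in the 2 lines.

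Across both lines, 21 members rose in each, ADAM9 alone fell in each, 5 rose in H1299 and fell in H1703 and 3 did the reverse. The 2 lines have separate controls. Of 30 members called in both, 8 (26.7%) went in opposite directions, against 781 of 7811 genes (10.0%) called in both. Without H1703 DMSO replicate 3 the number was 5 of 25 (20%), with MMP2, TIMP1 and ADAMTS6 lost, against 9.3% of all genes. In a direct test of the difference of the SAHA effect (H1703 minus H1299), 11 of 56 members had a higher and 14 a lower value in H1703, where 13.7% and 21.2% of all genes were called (34.9% in all), and 31 did not pass. The remaining 16 members were tested in neither line: ADAM2, ADAM30, ADAMTSL2 and MMP27 had no count in any library, and ADAM7, ADAM18, ADAM20, ADAM29, ADAM32, ADAM33, ADAMTS4, ADAMTS5, MMP8, MMP21, MMP23B and MMP26 had at most 32 counts summed over the 3 libraries of a group. Several of these are known from the testis or, for ADAMTS4 and ADAMTS5, as aggrecanases of cartilage. ADAM18, a sperm protein, had no count under DMSO in either line and 17 and 28 counts with SAHA.

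Of the ADAM genes tested, 6 of 11 rose and 1 fell in H1299, and 10 of 12 rose and 2 fell in H1703. Among the risers, ADAM21 in H1299, and ADAM21 and ADAM28 in H1703, reached the filter level in the SAHA libraries alone. ADAM9, a sheddase, read 137.9, 137.1 and 135.6 CPM in H1299 with DMSO and 71.8, 53.9 and 59.1 CPM with SAHA (log2 change -1.21 ± 0.11, adjusted p = 1.4e-05). In H1703 it fell from 269.5, 279.6 and 288.8 CPM to 159.1, 158.5 and 178.1 CPM (-0.74 ± 0.08, adjusted p = 2.1e-05). Every SAHA library lay below every DMSO library in both lines. The fall was smaller in H1703 by 0.39 ± 0.13 on the log2 scale (adjusted p = 0.035), a call that was lost without any one of 8 of the 12 libraries: the 3 H1299 DMSO libraries, H1299 SAHA replicates 2 and 3, H1703 DMSO replicates 1 and 2 and H1703 SAHA replicate 3 (adjusted p from 0.0577 to 0.0804).

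ADAM15, a disintegrin metalloprotease of epithelial and endothelial junctions, rose in both lines. Its H1299 libraries read 64.9, 64.7 and 58.9 CPM with DMSO and 130.0, 142.2 and 153.1 CPM with SAHA (1.12 ± 0.09, adjusted p = 7e-06). In H1703 they read 104.9, 110.0 and 98.9 CPM and then 302.3, 322.0 and 261.9 CPM (1.52 ± 0.09, adjusted p = 6.1e-07). The groups did not overlap in either line, and the difference between lines, 0.32 ± 0.13, did not pass (adjusted p = 0.0697). It did pass without H1299 SAHA replicate 3 or H1703 SAHA replicate 3 (adjusted p = 0.0442 and 0.0234) and in DESeq2 (0.0235).

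ADAM10, the main sheddase of Notch and cadherins, rose in H1703 from 191.6, 203.5 and 203.5 CPM to 249.5, 246.3 and 288.2 CPM (0.41 ± 0.08, adjusted p = 0.00174). ADAM17, the TNF and EGF-ligand sheddase, rose there from 70.6, 78.0 and 71.1 CPM to 97.2, 99.8 and 109.8 CPM (0.50 ± 0.08, adjusted p = 0.00051). Both changes were small but without overlap. In H1299 the values were 0.26 ± 0.11 for ADAM10 (adjusted p = 0.0713) and 0.21 ± 0.09 for ADAM17 (adjusted p = 0.0624), neither of which passed. Without H1299 DMSO replicate 3 ADAM10 passed (0.33, adjusted p = 0.0415), as did ADAM17 without H1299 SAHA replicate 1 (0.26, adjusted p = 0.0284), and in 1 fit over 12 libraries both did (adjusted p = 0.0164 and 0.0124). The line differences did not pass (adjusted p = 0.729 and 0.183).

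ADAM28, a membrane or secreted ADAM known from lymphocytes and lung tumours, was close to absent in H1299 (8 counts with DMSO, 31 with SAHA, not tested). In H1703 it read 1.34, 0.583 and 1.17 CPM with DMSO and 13.3, 11.9 and 13.5 CPM with SAHA (3.67 ± 0.25, adjusted p = 1.2e-06). The SAHA libraries were thus well above the DMSO libraries, while the line difference (1.71 ± 0.98) did not pass (adjusted p = 0.202). ADAM11 and ADAM23, catalytically inactive ADAMs of neurons, rose in both lines by 0.62 to 1.39 on the log2 scale, and ADAM19 rose by 1.46 ± 0.11 in H1299 and 0.77 ± 0.26 in H1703. The H1703 call of ADAM19 (adjusted p = 0.0405) was lost without H1703 DMSO replicate 1 or any one SAHA library (adjusted p from 0.0608 to 0.109). Its H1703 DMSO libraries read 98.6, 104.9 and 52.8 CPM, so replicate 3 stood apart. The line difference of ADAM19, -0.76 ± 0.29, did not pass (adjusted p = 0.0618). Without H1703 DMSO replicate 3 it was -1.01 (adjusted p = 0.00017). ADAM22, also inactive and a receptor of LGI proteins, rose in H1703 (1.37 ± 0.18) and read -0.42 ± 0.24 in H1299 (adjusted p = 0.153; -0.44 and 0.0101 with the repeat number as a block, and -0.68 and 0.0186 without SAHA replicate 2), with a line difference of 1.72 ± 0.31 (adjusted p = 0.00089). ADAM21, an ADAM of the testis, rose by 1.41 ± 0.51 in H1299 (adjusted p = 0.0348; 0.075 with the block), a call lost without DMSO replicate 1 or 3 or SAHA replicate 1 or 3 (adjusted p from 0.0626 to 0.158). ADAM8, an ADAM of leukocytes, rose in H1703 by 0.87 ± 0.23 and read 0.65 ± 0.38 in H1299 (adjusted p = 0.162; 1.05 and 0.0478 without DMSO replicate 2).

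Of the secreted ADAMTS enzymes tested, 12 of 16 rose and 1 fell in H1299, and 9 of 14 rose and 2 fell in H1703. Of the H1299 risers, ADAMTS2, ADAMTS7, ADAMTS8, ADAMTS9, ADAMTS10, ADAMTS13, ADAMTS14, ADAMTS15, ADAMTS17 and ADAMTS18 reached the filter level in the SAHA libraries alone. In H1703 ADAMTS2, ADAMTS3 and ADAMTS17 did so. These could be tested only because they were high with SAHA, so the counts of risers lean on the filter. ADAMTS2, the main procollagen I N-propeptidase, had no count in any of the 6 DMSO libraries. With SAHA it read 1.08, 0.889 and 1.87 CPM in H1299, at least 22-fold higher (adjusted p = 0.0004), and 9.06, 10.3 and 10.8 CPM in H1703, at least 159-fold higher (adjusted p = 6.4e-07). It was the only named member with no count under DMSO in both lines and a rise in both. ADAMTS14, its close relative, went from no count to 1.49, 0.826 and 1.35 CPM in H1299, at least 21.0-fold higher (adjusted p = 0.00028). In H1703, where it was already on, it rose from 4.09, 5.31 and 4.06 CPM to 9.26, 8.31 and 8.35 CPM (0.96 ± 0.16, adjusted p = 0.00058). The third procollagen N-propeptidase, ADAMTS3, rose by 0.43 ± 0.12 in H1299 and by 2.29 ± 0.35 in H1703 (line difference 1.79 ± 0.31, adjusted p = 0.00046). All 3 propeptidases were thus called higher in both lines. The calls of ADAMTS2 and ADAMTS14 in H1299, and of ADAMTS2 and ADAMTS3 in H1703, passed the filter through the SAHA libraries alone. A fall of these genes could not have been tested, so the shared direction is no separate support. The ADAMTS3 call in H1299 (adjusted p = 0.0102) was lost without H1299 DMSO replicate 2 (0.37, adjusted p = 0.0525).

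ADAMTS8 and ADAMTS15, neighbours on chromosome 11 and both proteoglycan-cleaving enzymes, rose far in H1299 and little in H1703. ADAMTS15 went from 0.242, 0.532 and 0.509 CPM to 15.7, 17.7 and 13.0 CPM in H1299 (5.09 ± 0.26, adjusted p = 6.4e-07). In H1703 it went from 16.7, 18.8 and 13.7 CPM to 22, 20.4 and 20.3 CPM (0.36 ± 0.13, adjusted p = 0.0363). H1299 with SAHA thus came close to the level that H1703 had with DMSO, and the line difference was -4.79 ± 0.29 (adjusted p = 3.7e-08). The H1703 call was lost without DMSO replicate 1 or 3 or any one SAHA library (adjusted p from 0.0575 to 0.149). ADAMTS8 went from 2 to 137 counts in H1299, a ratio of 70.7 (19.2 to 589.4), with 2.27, 3.11 and 2.93 CPM after SAHA; both DMSO counts came from replicate 3. In H1703 it rose by 1.18 ± 0.40 (adjusted p = 0.0253), which was lost with the block (0.0775) and without DMSO replicate 2 or 3 or any one SAHA library (adjusted p from 0.0564 to 0.0845).

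ADAMTS17, linked to fibrillin and to short stature, rose in both lines from almost nothing. It had 2 counts with DMSO and 80 with SAHA in H1299, a ratio of 41.3 (11.1 to 346.6), and 2 and 126 counts in H1703, a ratio of 62.9 (17.1 to 525.0). In each line both DMSO counts lay in replicate 3, and the SAHA libraries read 1.79, 1.02 and 1.99 CPM in H1299 and 3.06, 2.03 and 2.96 CPM in H1703. ADAMTS7, a cartilage oligomeric matrix protein and thrombospondin cleaving enzyme, rose by 4.62 ± 0.28 in H1299 and 2.38 ± 0.18 in H1703 (line difference -2.32 ± 0.35, adjusted p = 0.00017). The von Willebrand factor protease ADAMTS13 rose by 2.30 ± 0.34 in H1299 and 1.23 ± 0.28 in H1703. It shares 3739 bases with REXO4, which had 1450, 1513 and 1545 counts in H1299 with DMSO and 1665, 1817 and 2037 with SAHA. In H1703 REXO4 had 872, 844 and 844 counts and then 1000, 1219 and 874. Strand use is not known, so reads from the shared bases cannot be told apart. ADAMTS1 rose in H1299 from 4.35, 3.61 and 4.58 CPM to 7.05, 6.67 and 7.61 CPM (0.71 ± 0.16, adjusted p = 0.00418). In H1703 it read 1.09, 1.40 and 1.17 CPM with DMSO and 1.33, 1.74 and 1.97 CPM with SAHA, with overlap (0.48 ± 0.28, adjusted p = 0.162).

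ADAMTS9, so different between the lines under DMSO, rose in H1299 from 3 to 47 counts, a ratio of 16.2 (5.2 to 81.2) with all 3 DMSO counts in replicate 3, and did not pass in H1703 (-0.29 ± 0.15, adjusted p = 0.106). ADAMTS16 fell in H1703 by 0.61 on the log2 scale (adjusted p = 0.0386), with overlap between the groups. That call was lost with the block (adjusted p = 0.0523) and without DMSO replicate 2 or 3 or SAHA replicate 2 or 3 (adjusted p from 0.0826 to 0.121). ADAMTS20 and ADAMTS19 did not pass in H1299 (0.38 ± 0.42 and -0.58 ± 0.29, adjusted p = 0.449 and 0.112) and had too few counts to test in H1703; without H1299 DMSO replicate 2 ADAMTS20 passed (1.04, adjusted p = 0.0273). ADAMTS18 went from 7 to 53 counts in H1299 (2.84 ± 0.75, adjusted p = 0.00885; 4.81 without DMSO replicate 2 and 2.24 without replicate 3). ADAMTS12, close to absent from H1299 with 9 and 13 counts, read 25.4, 29.2 and 29.8 CPM in H1703 with DMSO and 26.0, 24.2 and 24.6 CPM with SAHA, which did not pass (-0.16, adjusted p = 0.209).

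The ADAMTS-like proteins lack a protease domain and sit in the matrix as regulators. ADAMTSL4, which organises fibrillin in the eye, rose alike in both lines, by 2.58 ± 0.14 in H1299 and 2.45 ± 0.18 in H1703 (line difference -0.20 ± 0.23, adjusted p = 0.549). ADAMTSL5 rose by 1.04 ± 0.13 and 0.50 ± 0.15. The H1703 call of ADAMTSL5 (adjusted p = 0.0161) was lost without DMSO replicate 1 or 2 or SAHA replicate 1 (adjusted p from 0.0529 to 0.0647). ADAMTSL3 stood at 1.03, 1.36 and 1.41 CPM in H1299 with DMSO and 1.19, 0.889 and 0.878 CPM with SAHA, where it did not pass (-0.41 ± 0.29, adjusted p = 0.246). In H1703 it had 9 and 40 counts and was not tested alone, and the line difference in the 12-library fit was 2.47 ± 0.59 (adjusted p = 0.00467).

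The membrane-type MMPs split, with MMP15 and MMP17 up in both lines and MMP14, MMP16 and MMP24 each moving on a course of its own. MMP15 read 3.81, 2.72 and 2.55 CPM in H1299 with DMSO and 47.0, 58.0 and 51.1 CPM with SAHA (4.05 ± 0.17, adjusted p = 2.3e-07). In H1703 it read 52.3, 56.1 and 50.2 CPM and then 428.0, 415.3 and 360.5 CPM (2.94 ± 0.09, adjusted p = 1.5e-08). The line difference was -1.18 ± 0.18 (adjusted p = 0.00018). H1299 with SAHA reached about the level of H1703 with DMSO, and MMP15 was singled out after its values were seen. MMP17, a glycosylphosphatidylinositol-anchored MMP, rose by 2.1 ± 0.11 and 1.84 ± 0.12.

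MMP14 fell in H1299 from 86.6, 84.9 and 80.9 CPM to 33.0, 32.6 and 26.9 CPM (-1.50 ± 0.10, adjusted p = 3.1e-06), without overlap. In H1703 it stayed near 1 CPM, at 0.638, 0.525 and 0.756 CPM with DMSO and 0.666, 1.34 and 1.05 CPM with SAHA (0.70 ± 0.38, adjusted p = 0.13). The difference between the lines was 2.14 ± 0.29 (adjusted p = 6.7e-05). MMP25 (leukolysin) was just above the filter in H1703, at 1.02, 1.11 and 1.17 CPM with DMSO and 0.666, 0.349 and 0.0657 CPM with SAHA (-1.58 ± 0.53, adjusted p = 0.0245). Its call was lost without DMSO replicate 2 or 3 or SAHA replicate 2 (adjusted p from 0.0554 to 0.0681), and it became -2.30 without SAHA replicate 1. An antisense gene, MMP25-AS1, overlaps it with more counts (67 to 78 per library under DMSO and 95 to 125 with SAHA), and without known strand use reads of the pair cannot be told apart.

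Of the members that went opposite ways in the 2 lines, 5 rose in H1299 and fell in H1703. ADAMTS10 rose in H1299 to 1.08, 1.59 and 2.05 CPM (3.40 ± 0.49, adjusted p = 0.00025) and fell in H1703 to 3.20, 2.73 and 2.23 CPM (-3.71 ± 0.14, adjusted p = 4.4e-08). From DMSO levels that differed 261.8-fold the lines thus ended within a few CPM of each other, and the line difference was -7.18 ± 0.40 (adjusted p = 1.8e-08). MMP24 rose in H1299 from 2.12, 1.54 and 1.98 CPM to 5.02, 6.29 and 5.45 CPM (1.51 ± 0.21, adjusted p = 0.00018). In H1703 it fell from 148.9, 161.2 and 149.4 CPM to 13.2, 12.7 and 11.9 CPM (-3.58 ± 0.09, adjusted p = 6.2e-09; line difference -5.17 ± 0.17, adjusted p = 2.7e-10). MMP24OS, which overlaps it on the opposite strand, rose by 0.66 ± 0.08 in H1299 and 0.30 ± 0.08 in H1703. In H1703 MMP24OS counts went from 1308, 1350 and 1122 to 1452, 1808 and 1369 while those of MMP24 fell. Strand use is not known, so reads from bases shared by the pair cannot be told apart.

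MMP7 rose in H1299 to 0.717, 1.33 and 1.29 CPM (2.9 ± 0.66, adjusted p = 0.00375; 4.03 without DMSO replicate 1) and fell in H1703 to 12.9, 16.9 and 13.3 CPM (-1.40 ± 0.12, adjusted p = 7.2e-06). ADAM12 (meltrin alpha), a sheddase of heparin-binding EGF and IGF-binding proteins, rose in H1299 from 0.967, 0.946 and 1.3 CPM to 2.99, 2.16 and 3.22 CPM (1.32 ± 0.27, adjusted p = 0.00209). It fell in H1703 from 25.5, 28.2 and 26.0 CPM to 9.66, 9.65 and 10.7 CPM (-1.39 ± 0.11, adjusted p = 3.9e-06; line difference -2.78 ± 0.25, adjusted p = 1.1e-06). In both genes all groups of a line were separate. MMP2 rose in H1299 to 9.32, 15.6 and 13.4 CPM (0.92 ± 0.19, adjusted p = 0.00239) and fell in H1703 to 32.0, 38.1 and 36.0 CPM (-0.28 ± 0.10, adjusted p = 0.0356). The fall in H1703 was lost without DMSO replicate 2 or 3 or SAHA replicate 1 (adjusted p from 0.0798 to 0.114). It was also lost in DESeq2 (adjusted p = 0.063) and in 1 fit over 12 libraries (0.0893). The line difference of MMP2, -1.27 ± 0.22, passed (adjusted p = 0.00047).

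The reverse pattern, down in H1299 and up in H1703, was seen for MMP16, ADAMTS6 and TIMP1. MMP16, a membrane-type MMP that can also activate pro-MMP2, fell in H1299 from 26.2, 24.5 and 27.5 CPM to 19.2, 12.1 and 14.8 CPM (-0.82 ± 0.16, adjusted p = 0.0018). It rose in H1703 from 11, 9.74 and 10.8 CPM to 39.3, 35.3 and 37.1 CPM (1.84 ± 0.11, adjusted p = 4.3e-07; line difference 2.59 ± 0.20, adjusted p = 3.6e-07). ADAMTS6, known from heart development, fell in H1299 from 11.9, 10.0 and 11.3 CPM to 8.42, 5.02 and 6.32 CPM (-0.80 ± 0.19, adjusted p = 0.00502). It rose in H1703 from 1.47, 2.33 and 1.58 CPM to 3.26, 2.91 and 3.29 CPM (0.82 ± 0.25, adjusted p = 0.0145; line difference 1.55 ± 0.31, adjusted p = 0.00151). The H1703 rise of ADAMTS6 was lost without DMSO replicate 1 or 3 (adjusted p = 0.0567 and 0.0531). The comparison between the lines under DMSO shares its libraries with these SAHA comparisons, so the values are set side by side only.

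**Figure D3:**
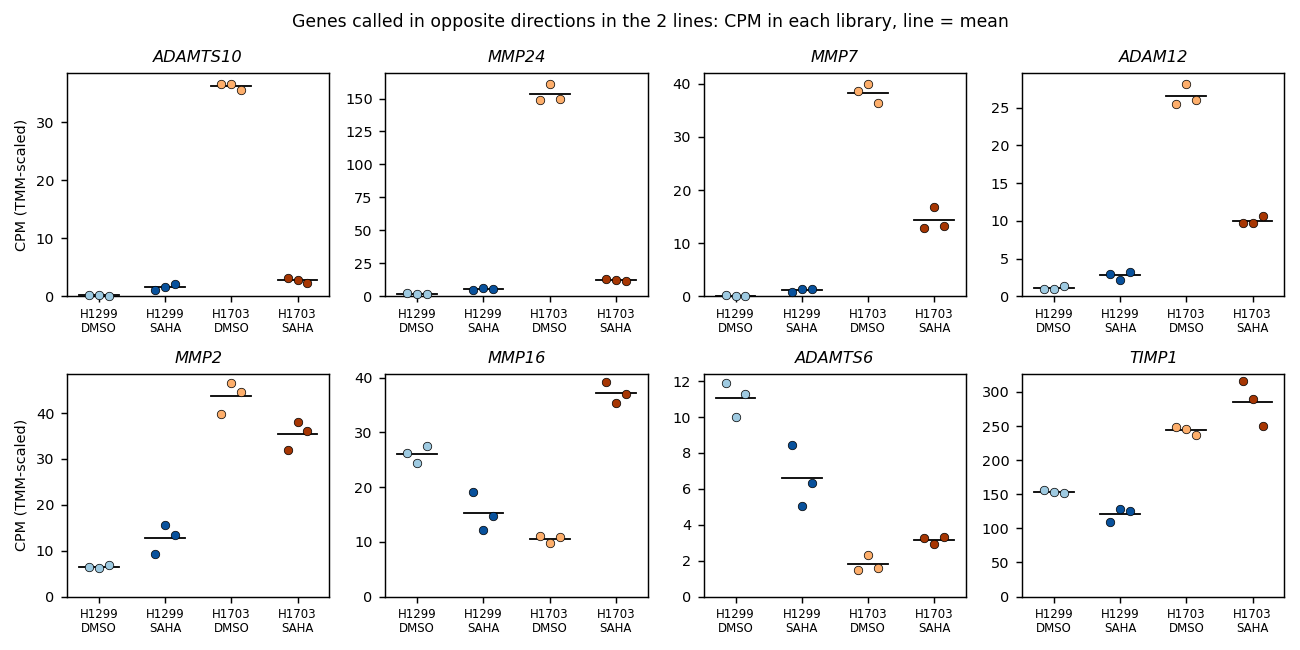
CPM in each library (vertical axis, linear and starting at 0 in each panel) of the 8 genes called in opposite directions in the 2 lines; points are libraries and lines are means of 3. ADAMTS10, MMP24, MMP7, ADAM12 and MMP2 drop from H1703 DMSO to SAHA while they rise in H1299, and MMP16, ADAMTS6 and TIMP1 do the reverse.

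Bases upstream of the start sites were read for members that moved strongly and had an entry in the RefSeq promoter table (GRCh38.p14), which held 46 starts of 45 members. They are shown as 120 bases ending at the start site, 5′ to 3′ on the gene's strand, with capitals marking matches on either strand to the GC box GGGCGG, the core TATAAA and the AP-1 site TGANTCA. The first 4 are genes with strong changes: MMP15 (chr16:58025634-58025753, plus strand) and ADAMTS2 (chr5:179345462-179345581, minus strand) rose in both lines, and ADAMTS10 (chr19:8610716-8610835, minus strand, the more upstream of 2 starts) and MMP24 (chr20:35226570-35226689, plus strand) moved in opposite directions.
MMP15: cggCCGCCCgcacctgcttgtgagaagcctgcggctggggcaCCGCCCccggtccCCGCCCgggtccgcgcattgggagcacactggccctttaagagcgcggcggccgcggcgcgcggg
ADAMTS2: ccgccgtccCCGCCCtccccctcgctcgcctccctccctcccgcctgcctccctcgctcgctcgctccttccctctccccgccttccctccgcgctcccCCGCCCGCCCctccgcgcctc
ADAMTS10: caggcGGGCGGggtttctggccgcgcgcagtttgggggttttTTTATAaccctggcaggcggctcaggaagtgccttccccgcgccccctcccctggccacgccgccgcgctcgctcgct
MMP24: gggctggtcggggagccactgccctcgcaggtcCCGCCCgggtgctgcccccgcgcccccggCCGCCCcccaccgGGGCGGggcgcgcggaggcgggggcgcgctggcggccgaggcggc
All 4 windows hold at least 1 GC box, and the pair that rose in both lines does not differ from the opposite pair in that respect. Over the 250 bases before each start, 31 of 46 member starts (67.4%) held a GC box, against 42.6% of 35116 starts in the table. A TATAAA was found in 8 (17.4%, against 10.7%) and an AP-1 site in 4 (8.7%, against 6.57%). A match describes these letters and is no evidence of a bound factor.

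A row of 9 MMP genes lies on chromosome 11 (GRCh38, from MMP7 at 102520508 to the end of MMP13 at 102955734), and its members moved in different directions. The cluster holds the collagenases MMP1, MMP8 and MMP13, the stromelysins MMP3 and MMP10, the elastase MMP12, matrilysin (MMP7), the enamel protease MMP20 and MMP27. In H1703, MMP1, MMP3, MMP10, MMP12 and MMP13 rose and MMP7 fell. In H1299, MMP7, MMP10 and MMP20 rose, MMP13 did not pass, and MMP1, MMP3 and MMP12 had too few counts to test.

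The promoter table held 5 of the 9 cluster genes. The promoters of 3 that rose in H1299 are shown because each has both an AP-1 site and a TATAAA. Textbook accounts give this pair of motifs for inducible MMPs. The windows are chr11:102780629-102780748 for MMP10, chr11:102530748-102530867 for MMP7 and chr11:102625333-102625452 for MMP20, all on the minus strand, with capitals as above.
MMP10: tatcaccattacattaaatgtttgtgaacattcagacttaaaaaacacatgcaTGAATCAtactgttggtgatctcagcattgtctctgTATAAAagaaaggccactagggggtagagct
MMP7: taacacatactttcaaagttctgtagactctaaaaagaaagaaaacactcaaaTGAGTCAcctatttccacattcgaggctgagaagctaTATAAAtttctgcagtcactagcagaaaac
MMP20: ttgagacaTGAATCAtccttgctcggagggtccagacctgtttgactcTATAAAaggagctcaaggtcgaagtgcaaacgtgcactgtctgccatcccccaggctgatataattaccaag
In MMP10 and MMP7 the AP-1 site begins 67 bases before the start, in MMP20 112 bases before it. The TATAAA begins 31 bases before the start in MMP10, 30 in MMP7 and 72 in MMP20. Both motifs of MMP20 thus lie farther from its start. The 5 cluster starts held an AP-1 site in 3, a TATAAA in 4 and a GC box in 0. With this shared pair of motifs, MMP10 rose in both lines, MMP7 went opposite ways and MMP20 rose in H1299 alone among the comparisons with enough counts.

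The largest rise of the cluster in H1703 was that of MMP13 (collagenase-3), from 0, 0.117 and 0.206 CPM to 6.86, 6.86 and 6.97 CPM (5.94 ± 0.41, adjusted p = 1.4e-06; 6.66 without DMSO replicate 3). In H1299, with 1.39, 1.71 and 1.92 CPM under DMSO and 1.61, 1.40 and 1.41 CPM with SAHA, it did not pass (-0.24 ± 0.25, adjusted p = 0.422). The line difference of 6.12 ± 0.51 (adjusted p = 6.7e-07) was the highest called value among the members. MMP1, the interstitial collagenase, rose in H1703 from 1.91, 1.40 and 1.31 CPM to 8.33, 12.1 and 12 CPM (2.82 ± 0.23, adjusted p = 3.7e-06). In H1299 it read 1.27, 0.591 and 0.679 CPM and then 0.418, 0.508 and 0.293 CPM, without overlap but too low for the test within the line. In 1 fit over 12 libraries, and without H1299 DMSO replicate 2, it could be tested there. In both settings it was called lower in H1299 and higher in H1703. The line difference was 3.85 ± 0.47 (adjusted p = 2.5e-05). Both collagenases were thus low in H1703 with DMSO and higher in all 3 of its SAHA libraries. MMP13 passed the filter in H1703 through the SAHA libraries alone.

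MMP12 (macrophage elastase) had no count in any H1299 library and went in H1703 from 0.191, 0.175 and 0 CPM to 1.80, 1.98 and 1.31 CPM (3.69 ± 0.55, adjusted p = 0.00023). MMP3 rose there by 1.60 ± 0.39. MMP10 rose by 2.87 ± 0.46 in H1299 and 2.64 ± 0.26 in H1703, with no called difference between the lines (-0.31 ± 0.52, adjusted p = 0.698). MMP20 (enamelysin), normally made by enamel-forming cells, went from 1 to 92 counts in H1299, a ratio of 94.9 (16.6 to 3789.4), the 1 count lying in replicate 2. Its SAHA libraries read 1.85, 1.84 and 1.87 CPM. The antisense gene AP000851.1 overlaps most of MMP20 and went from 0 counts in all 3 H1299 DMSO libraries to 77, 102 and 136 counts with SAHA; the labels contradict themselves on strand, so reads of the pair cannot be told apart.

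**Figure D4:**
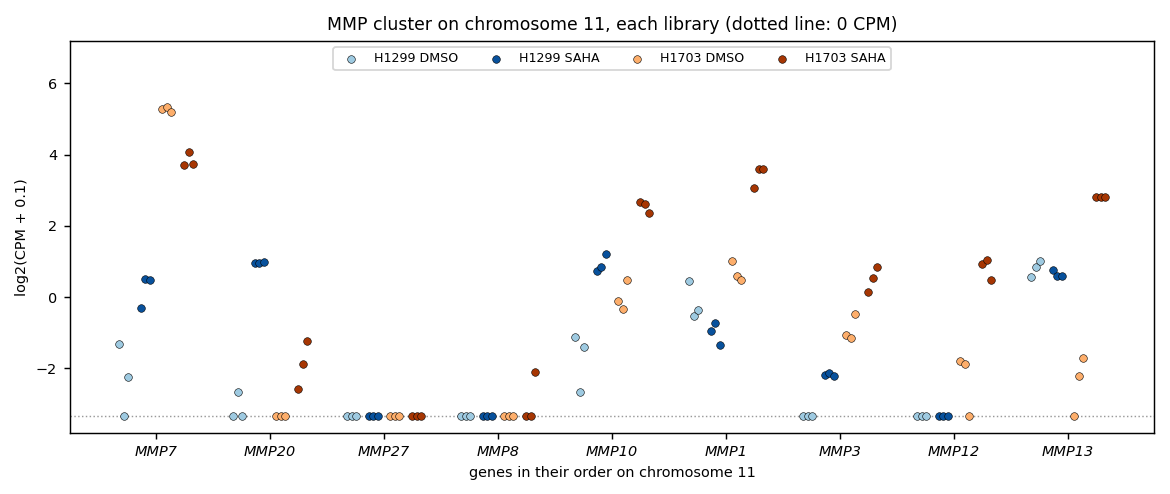
Levels of the 9 MMP genes of the chromosome 11 cluster in each library, as log2(CPM + 0.1) in their order along the chromosome; the dotted line marks 0 CPM. In H1703 MMP10, MMP1, MMP3, MMP12 and MMP13 are higher with SAHA and MMP7 is lower, while in H1299 MMP20 leaves the 0 line.

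Outside the cluster, the gelatinase MMP9 rose in both lines. It went from 2.06, 1.66 and 1.25 CPM to 4.42, 4.32 and 4.10 CPM in H1299 (1.32 ± 0.23, adjusted p = 0.00077). In H1703 it went from 0.255, 0.583 and 1.44 CPM to 5.13, 5.99 and 4.27 CPM (2.79 ± 0.44, adjusted p = 0.00053; 3.57 without DMSO replicate 3), and the line difference did not pass (1.40 ± 0.52, adjusted p = 0.0532). It passed without H1299 DMSO replicate 3 (adjusted p = 0.0444), without H1703 DMSO replicate 3 (2.20, 0.00231) and in DESeq2 (0.0179). Part of MMP9 overlaps the antisense gene SLC12A5-AS1, which went from 9, 22 and 11 counts to 188, 170 and 185 counts in H1299 and from 21, 21 and 15 to 62, 80 and 65 counts in H1703; reads of this pair cannot be told apart either. MMP11 rose in H1299 (1.56 ± 0.20, adjusted p = 0.00014), from 3.20, 2.42 and 2.15 CPM to 8.60, 8.38 and 6.79 CPM, and was below the filter in H1703. MMP28 (epilysin) rose by 3.3 ± 0.66 in H1299 (2.71 without DMSO replicate 3) and 2.54 ± 0.23 in H1703. It lies within TAF15, whose counts fell from 1366, 1394 and 1596 to 1032, 1057 and 1057 in H1299. In H1703 those of TAF15 went from 2356, 2757 and 2498 to 1895, 2177 and 1828. Reads from bases shared by this pair cannot be told apart. MMP19 rose by 1.85 ± 0.20 in H1703.

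Of the 4 inhibitors, TIMP1 was called in both lines, TIMP3 and TIMP4 rose in H1703, and TIMP2 was called in neither. TIMP1 fell slightly in H1299, from 155.8, 153.9 and 152.1 CPM to 110.0, 127.7 and 126.1 CPM (-0.40 ± 0.08, adjusted p = 0.00232), with no overlap. In H1703 it read 248.7, 245.9 and 237.5 CPM with DMSO and 316.7, 289.4 and 250 CPM with SAHA, a rise that just passed (0.24 ± 0.09, adjusted p = 0.0382). That rise was lost without any one of the 3 DMSO libraries or SAHA replicate 1 or 2 (adjusted p from 0.0841 to 0.154). The line difference of TIMP1, 0.57 ± 0.13, passed (adjusted p = 0.00291). TIMP1 lies within the gene SYN1 (synapsin I), whose own count rose from 1.94 ± 0.0551 to 36.0 ± 2.15 CPM in H1299 and from 1.67 ± 0.802 to 73.5 ± 1.43 CPM in H1703.

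TIMP2, the inhibitor that also bridges MMP14 and pro-MMP2, was set by single libraries. In H1299 it read 54.6, 210.4 and 53.3 CPM with DMSO and 237.2, 279.8 and 250.9 CPM with SAHA (1.22 ± 0.64, adjusted p = 0.159). Without DMSO replicate 2 the value was 2.17 (adjusted p = 3.5e-06). In H1703 it read 294.6, 284.5 and 282.4 CPM with DMSO and 238.1, 238.1 and 827.7 CPM with SAHA (0.62 ± 0.59, adjusted p = 0.409). Without SAHA replicate 3 the direction turned, to -0.26 (adjusted p = 0.00513). CEP295NL, the protein-coding gene that overlaps TIMP2, had 24, 28 and 25 counts in H1299 with DMSO and 34, 46 and 44 in H1703 with SAHA, with no such step. Between the lines under DMSO it read 1.44 ± 0.65 (adjusted p = 0.0809), and 2.41 (0.00665) without H1299 DMSO replicate 2. No direction is therefore given for TIMP2.

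TIMP3, which binds to matrix and also inhibits ADAM17 and ADAMTS enzymes, rose in H1703 from 0.191, 0 and 0.413 CPM to 8.33, 7.55 and 8.87 CPM (5.39 ± 0.46, adjusted p = 9.6e-06). Without DMSO replicate 2 and without replicate 3 the value was 4.76 and 6.38. In H1299 it had no count in the DMSO group and 11 in the SAHA group, at least 3.78-fold higher, too few for the test, and the line difference did not pass (0.47 ± 0.71, adjusted p = 0.665). TIMP4 rose in H1703 from 20.6, 19.5 and 19.5 CPM to 41.1, 34.9 and 38.1 CPM (0.95 ± 0.10, adjusted p = 2.4e-05) and had 1 count in all 6 H1299 libraries together. TIMP3 and TIMP4 lie within SYN3 and SYN2. SYN3 stayed below 1 CPM on average in every group, and SYN2 read 0.615 ± 0.157 and 1.69 ± 0.154 CPM in H1703 with DMSO and SAHA, both far below TIMP4.

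**Figure D5:**
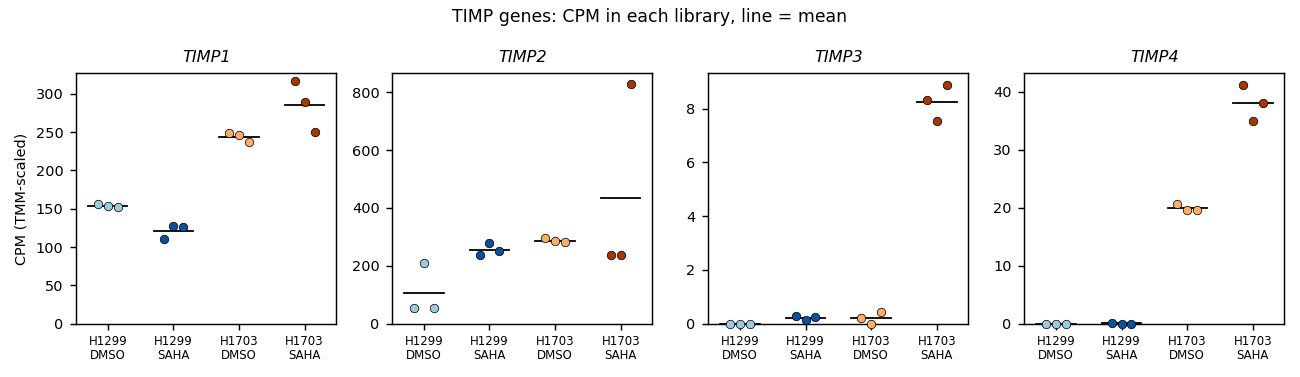
CPM in each library of the 4 TIMP genes (vertical axis, linear and starting at 0); points are libraries and lines are means of 3. One H1299 DMSO library and 1 H1703 SAHA library of TIMP2 stand apart (210.4 and 827.7 CPM), and TIMP3 leaves the baseline in H1703 with SAHA alone.

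Genes that work with the proteases were counted from 6 lists. Of 12 helpers and regulators of ADAM10 and ADAM17, 9 rose and 0 fell in H1299 (median log2 0.71), and 6 rose and 1 fell in H1703 (0.51). TSPAN33, a tetraspanin that escorts ADAM10, rose from 18 ± 2.05 to 62.1 ± 4.49 CPM in H1299 (1.73 ± 0.11) and by 1.32 ± 0.09 in H1703. SH3PXD2B, an invadopodium scaffold, rose by 1.55 ± 0.12 and 1.61 ± 0.07. PACSIN3, an adaptor of ADAM cytoplasmic tails, fell in H1703 by 0.55.

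Of the proprotein convertases, which remove the inhibitory prodomain, and the plasminogen system, 5 of 10 tested genes rose and 3 fell in H1299, and 5 of 11 rose and 3 fell in H1703 (medians 0.27 and 0.23). PLAU, the urokinase that starts plasmin formation, fell from 459 ± 4.94 to 168 ± 12.5 CPM in H1299 (-1.50 ± 0.08, adjusted p = 8.7e-07). Its counts also fell in H1703, from 4141, 4736 and 3574 with DMSO to 2331, 2443 and 1845 with SAHA. In H1703, PLAT (tissue plasminogen activator) rose from 7.24 ± 0.876 to 72.0 ± 6.8 CPM and the convertase PCSK6 fell from 19.2 ± 2.0 to 5.68 ± 0.604 CPM. In H1299 PLAT counts also rose, while those of PCSK6 overlapped.

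Other inhibitors, inducers and clearance receptors rose in 6 of 10 tested genes in H1299 and 8 of 10 in H1703, with 1 fall in each (medians 0.49 and 1.37). TFPI2, a Kunitz inhibitor held in the matrix, rose from 72.3 ± 1.66 to 179 ± 4.49 CPM in H1299 (1.26 ± 0.07) and from 46.6 ± 2.78 to 2542 ± 99.5 CPM in H1703 (5.79 ± 0.09, adjusted p = 9.8e-10). LRP1, which takes up MMPs and TIMPs from the cell surface, rose by 2.41 ± 0.18 and 2.04 ± 0.09. CD44, a docking site of MMP9 and MMP14, fell by 0.62 and 0.53.

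Of the shed ligands and adhesion proteins, 16 of 21 tested rose and 3 fell in H1299 and 15 of 25 rose and 8 fell in H1703 (medians 1.14 and 0.60). AREG (amphiregulin, freed by ADAM17) rose from 0.312 ± 0.148 to 22.2 ± 1.67 CPM in H1299 and from 27.6 ± 0.603 to 456 ± 29.6 CPM in H1703. L1CAM, an ADAM10 substrate, rose from 0.276 ± 0.0953 to 70.3 ± 6.32 CPM and from 14.4 ± 1.13 to 218 ± 26.1 CPM. NRG1 (neuregulin) fell by 1.02 and 1.05 on the log2 scale.

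Matrix substrates rose in 18 of 23 tested genes and fell in 3 in H1299, and rose in 14 of 28 and fell in 10 in H1703 (medians 0.80 and 0.58). COL1A1, the collagen I chain that ADAMTS2 and ADAMTS14 trim, went from 1.35 ± 0.451 to 38.3 ± 6.86 CPM in H1299, and THBS1 (thrombospondin 1) rose there by 2.28 ± 0.11. In H1703 the laminin chain LAMB3 rose by 2.49 ± 0.10 and fibronectin (FN1) by 1.48 ± 0.07, while the ADAMTS substrate versican (VCAN) fell from 85.7 ± 0.75 to 23.8 ± 2.61 CPM. In H1299 counts of LAMB3 and FN1 also rose, and those of VCAN rose where they fell in H1703. THBS1 counts fell in H1703, and those of COL1A1 overlapped there. Of 15 AP-1 and ETS-type factors known at MMP promoters, 7 rose and 5 fell in H1299 and 8 rose and 4 fell in H1703 (median 0.40 in both). FOSL1 (FRA1) fell from 409 ± 11.1 to 36.6 ± 4.87 CPM in H1299 and JUND rose there by 1.95 ± 0.08. In H1703 JUND rose by 1.78 ± 0.09 and JUN by 1.77 ± 0.11, and ETS2 fell by 1.06. JUN counts also rose in H1299, from 1601, 1820 and 1609 to 6915, 7465 and 7174. FOSL1 counts also fell in H1703, from 386, 501 and 346 to 155, 139 and 98. ETS2 counts rose in H1299, from 167, 219 and 218 to 474, 388 and 429. The called shares of all genes given above (33.3% and 30.4% in H1299, 34.7% and 32.6% in H1703) are the background of these lists as well.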

How the data were processed

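Poly(A) RNA of 12 libraries was measured. The authors deposited 1 table per line with raw counts and FPKM values per gene, per the file headers; the submitters' processing notes name the build GRCh38 and, without their roles, edgeR 3.30.3, StringTie 1.3.3b and HISAT2 2.1.0. The counter and its strand setting are not stated in these sources. Groups came from the labels; control columns, named by a shorthand, were read as DMSO. The deposited FPKM values equal count over column total and gene length within 1% in 100.0% of 179559 values and served only to compare genes.

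Tests on counts used R 4.3.3 and edgeR 4.0.16 (filterByExpr with minimum count 10 and total 15, TMM, robust quasi-likelihood fit, Benjamini-Hochberg adjustment over all genes, called at an adjusted p below 0.05). Each line was fitted alone; line comparisons came from 1 fit over 12 libraries. The standard error is the log2 change over the root of F. CPM is TMM-scaled over 12 libraries. With no count in a group, folds use a floor of 3 counts over its 3 libraries; with 1 to 3 counts, exact 95% intervals are given; both cover counting error only. The script was tested on simulated counts with known changes. In each simulated fit of 17273 to 19105 genes, 100 were changed by 1 and 100 by 2 on the log2 scale. There 7.2 to 8.9% of the calls were false, and 5.3% for the line difference. Of true changes of 1 on the log2 scale, 66 to 69% were recovered, but 27% for the line difference. Far more genes were called in the data than were changed there, so these shares do not carry over to the data. A line difference that did not pass is no sign of equal effects. No replicates agreed within sampling noise.

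Named were, at 1 CPM or more in a group, the 6 called members with the largest change per direction and SAHA comparison, 5 per direction between the lines, 4 per direction for the line difference, and 13 fixed genes; other members are given in brief and were chosen after their values were seen. From the 6 related lists, the 2 called genes with the smallest adjusted p and 1 of opposite direction were named, except that some are not reported here. The members and lists were chosen with earlier results of these data known. The labels tag repeat numbers as batches, so the number was tried as a block; within a line, deviations of same-numbered libraries correlated between -0.031 and 0.033. Alternatives were DESeq2 1.42.0, RLE size factors, no filter, the block, other sets of libraries and leaving out each library.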

Additional observations from a re-analysis of the deposited data

Results flagged for a closer look

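For 25 members, the SAHA effect differed between the lines in the direct test (H1703 minus H1299, log2). The value was above 0 for MMP13 (6.12), MMP1 (3.85), MMP16 (2.59), ADAMTSL3 (2.47), MMP19 (2.43), MMP14 (2.14), ADAMTS3 (1.79), ADAM22 (1.72), ADAMTS6 (1.55), TIMP1 (0.57) and ADAM9 (0.39). It was below 0 for ADAMTS10 (-7.18), ADAMTS14 (-6.39), MMP24 (-5.17), ADAMTS15 (-4.79), ADAMTS8 (-4.73), MMP7 (-4.37), ADAMTS9 (-4.16), ADAM12 (-2.78), ADAMTS7 (-2.32), MMP2 (-1.27), MMP15 (-1.18), ADAMTS16 (-1.12), ADAMTSL5 (-0.61) and MMP24OS (-0.42). The call of ADAMTSL5 was lost without any one of H1299 DMSO replicates 1 and 2, H1299 SAHA replicate 2, H1703 DMSO replicate 3 and H1703 SAHA replicate 3 (adjusted p from 0.056 to 0.0759), and that of ADAM9 without any one of 8 libraries, as given above. ADAMTS14 had no count in H1299 with DMSO, so its value is a fitted one and no bound. Leaving out the library that held the few DMSO counts moved ADAMTS8 to -7.33, ADAMTS9 to -7.26 (both H1299 DMSO replicate 3), MMP7 to -5.51 (H1299 DMSO replicate 1) and MMP13 to 6.85 (H1703 DMSO replicate 3).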

How the results depend on the processing

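Counts of called members stayed within 1.5 times of the reported ones under the alternatives run, except that 5 members in place of 8 were lower in H1703 without DMSO replicate 2 and without DMSO replicate 3, and that 5 in place of 8 went opposite ways in the lines without H1703 DMSO replicate 3. Leaving out 1 library at a time gave 36 to 39 called members in H1299, 39 to 42 in H1703 (5 to 8 of them lower), 45 to 48 between the lines under DMSO, 23 to 27 for the line difference and 5 to 9 with opposite directions; alternatives for the last count were chosen after seeing the data. With the repeat number as a replicate block, ADAMTS8 (adjusted p = 0.0775) and ADAMTS16 (0.0523) in H1703, ADAM21 in H1299 (0.075), MMP12 under DMSO (0.0515) and ADAMTSL5 in the line difference (0.0739) lost their calls, and ADAM22 in H1299 gained one (0.0101); no other member's call changed. Other settings also ended calls. In H1703, DESeq2 did so for MMP2 (adjusted p = 0.063) and ADAMTS8 (0.12), and in H1299 for ADAM21 (0.0552). The 1 fit over 12 libraries did so in H1703 for MMP2 (0.0893), MMP25 (0.064) and ADAMTS15 (0.0772). No filter did so there for TIMP1 (0.0522), ADAMTS8 (0.0898), ADAM19 (0.139) and ADAMTS15 (0.0558). The 6 DMSO libraries alone did so between the lines for MMP9 (0.0768), ADAM8 (0.0582) and MMP1 (0.0559). No called member changed direction under any alternative. Of the members that had not passed, 8 of 31 line differences, 4 of 7 differences under DMSO and 1 of 5 SAHA effects in H1703 did so in at least 1; among the members named by rule in the same comparison these were TIMP2 in H1703 (-0.26 without SAHA replicate 3, up to 0.91 without SAHA replicate 1) and, in line differences, ADAM10 (-0.02 without H1299 DMSO replicate 3 and 0.00 without H1703 SAHA replicate 3), TIMP3 (-0.14 without H1703 DMSO replicate 2) and TIMP4 (0.93 without H1299 SAHA replicate 1, down to -1.39 without H1299 SAHA replicate 3). Of 1001 other values of named members over the alternatives, 947 kept direction and side of the threshold. The median of all genes moved to 0.170 in H1299 and 0.128 in H1703 with no filter. At these depths a member with under about 10 counts in every library of a fit did not pass the filter and could not be tested. Between the lines under DMSO, members with fewer counts in both DMSO groups were tested where their SAHA libraries passed.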
